A study of Mus musculus with 10 samples.

Results

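Among 2648 single cells of mouse skin sorted as lymphatic endothelial cells (LECs), 914 scored high for the transcripts of Thbs1, Pdgfb, Cd36 and Oxtr. The cells had been sorted on podoplanin and CD31 into the wells of 8 plates, 2 for each of 4 genotypes. Their RNA was sequenced by Smart-seq, a method for full-length cDNA. They are called LECs here because of this sort. A filter for LEC and against fibroblast markers, run as an alternative, left 10 to 345 wells per plate. The score was the mean of log2(CPM + 1) of the 4 genes, where CPM are read counts scaled to the same total of gene counts in each well. Wells above the 85th percentile of the score in the pooled control wells were taken as high-scoring, among wells with at least 50000 gene counts and 1000 detected genes. The cells were thus chosen by their measured levels of these 4 genes, so that the levels are given as descriptions without a test. The share of 193 of the 1287 pooled control wells (15.0%) was fixed by the rule.

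All mice carried floxed alleles and received 4-hydroxytamoxifen (62.5 µg) from P1 to P5, and the LECs were analyzed on P28. Tie1 fl/fl and Tie1 Tie2 fl/fl mice without Cre were the controls. Tie1 iΔLEC and Tie1 Tie2 iΔLEC mice carried in addition the Prox1CreERT2 transgene, a tamoxifen-activated Cre under the control of Prox1, a gene active in LECs. Because no control carried the Cre, deletion of the receptors and presence of the Cre cannot be told apart. Plate 1 of Tie1 fl/fl and plate 1 of Tie1 iΔLEC came from female mice and the other 6 plates from males. The sources used here do not give the number of mice per plate, so each plate stood for 1 sample, single cells did not serve as replicates, and the p-values measure only the spread between plates.

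Tie1 and Tie2 (encoded by Tek) are receptor tyrosine kinases of endothelial cells. Angiopoietin 2, which LECs make themselves, acts on them, and the pathway feeds into PI3K, AKT and FoxO signaling and is needed for the growth and maturation of lymphatic vessels. Thrombospondin 1 (Thbs1) is a secreted matrix glycoprotein that restrains angiogenesis, and CD36 is one of its cell-surface receptors as well as a fatty acid transporter. Platelet-derived growth factor B (Pdgfb) is the endothelial ligand that recruits pericytes and smooth muscle cells, and Oxtr is the oxytocin receptor, which couples to Gq proteins.

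The deposited tables had 2 layouts, and each genotype had 1 plate of each (in the Tie1 strain, the plates with symbols were also the female ones). Plate 1 of Tie1 fl/fl, plate 1 of Tie1 iΔLEC, plate 2 of Tie1 Tie2 fl/fl and plate 2 of Tie1 Tie2 iΔLEC named genes by symbol, and the other 4 plates by Ensembl identifier. The plates with symbols had more genes per cell. Their high-scoring cells had a median of 5922 to 7327 detected genes, against 3675 to 5404 on the other plates. Within each genotype they also had Pdgfb, Cd36 and Oxtr at 1 to 5 counts in more wells, and Thbs1 in all genotypes but Tie1 Tie2 iΔLEC (11.7% against 25.4%). Pdgfb was at 1 to 5 counts in 38.2% to 58.1% of their wells and in 7.89% to 22.1% of the wells of the other plates. Thbs1 was at 1 to 5 counts in 11.7% to 59.9% of the wells of the plates with symbols and in 25.4% to 45.3% of those with identifiers. The part that these low counts had in the score was not tested separately, but the shares are also given with low values set to 0 and with a threshold for each layout. High-scoring cells were shallower than the other wells on plate 1 of Tie1 fl/fl (medians of 228907 and 295800 counts) and on plate 2 of Tie1 Tie2 fl/fl (198995 and 268757), and differed less on the other 6 plates. Over all plates the medians were 190741 to 280326 counts in high-scoring cells and 179402 to 299503 counts in the others.

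Summed over each plate, high-scoring cells had the markers of LECs. Mmrn1 (multimerin 1) was at 1883 to 3079 CPM in the high-scoring cells of the 8 plates and Prox1, the transcription factor that sets LEC identity, at 586 to 1141 CPM. The 11 LEC markers summed to 11049 to 14251 CPM in high-scoring cells and to 11709 to 13952 CPM in the other wells. Markers of other cell types were present to different degrees. Ptprc (CD45) averaged 0.0542 CPM and the platelet gene Pf4 0.379 CPM. The platelet list summed to 16.5 to 101 CPM, most of it Itgb3, with Ppbp and Tubb1 at 0, and the macrophage list to 0.957 to 55.8 CPM, led by Csf1r, with Fcgr3 at 0. Of the 16 blood endothelial markers, Sele was at 0, and the list summed to 739 to 1440 CPM, led by Emcn, a gene that LECs also express. Fibroblast markers, led by Col3a1, summed to 46.1 to 421 CPM. Plate 1 of Tie1 Tie2 fl/fl was highest, with 421 CPM in high-scoring cells and 530 CPM in the others. The fibroblast sums were also lower in high-scoring cells on plate 2 of Tie1 fl/fl and plate 1 of Tie1 iΔLEC. They were higher on the remaining plates, with 158 against 79.2 and 376 against 164 CPM on the Tie1 Tie2 iΔLEC plates. Mural cell markers, led by Kcnj8, summed to 6.56 to 311 CPM, adipocyte markers (Lpl) to 9.61 to 144 CPM and red cell markers (Hbb-bs) to 0.273 to 165 CPM. In the other wells these lists summed to 11.2 to 194, 14.3 to 86.8 and 0.976 to 95.7 CPM. The order of high-scoring and other wells differed between plates in each list. On the Tie1 Tie2 iΔLEC plates the mural sums were 311 against 124 and 148 against 194 CPM. The red cell sums there were 38.5 against 2.37 and 165 against 95.7 CPM. Keratinocyte markers, led by Krt5, summed to 776 and 263 CPM in the high-scoring cells of the Tie1 Tie2 fl/fl plates and to 8.59 to 42.3 CPM in those of the other 6. In the other wells they summed to 150.2 and 198 CPM on the Tie1 Tie2 fl/fl plates, 102 to 134 CPM on the 4 plates of the Tie1 strain, and 14.2 and 6.76 CPM on the Tie1 Tie2 iΔLEC plates, so that they were higher in high-scoring cells on 3 plates and lower on the other 5. Among the genes of these 8 lists that averaged at least 10 CPM, none was higher, and none lower, in high-scoring cells on all 8 plates.

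The floxed genes were checked in the high-scoring cells first, with CPM after TMM scaling (which adjusts for differences in composition between plates), as in all comparisons of deletions. Tie1 was at 2360 and 2389 CPM on the 2 control plates of the Tie1 strain and at 734 and 343 CPM on the deleted plates. In the Tie1 Tie2 strain Tie1 was at 2528 and 2756 CPM without and at 653 and 397 CPM with the Cre. Tek was at 204 and 169 CPM without and at 27.95 and 43.8 CPM with the Cre there. In the Tie1 strain, whose Tek is not floxed, Tek was at 281 and 217 CPM on control and at 202 and 151 CPM on deleted plates. Both genes were thus lower on every plate in which the labels say they were deleted, and neither was at 0.

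The score had no gap at the threshold of 3.39. The 3 cells just inside were at 3.391, 3.391 and 3.392 and the 3 just outside at 3.388, 3.387 and 3.386. Within 0.25 of the threshold lay 84 high-scoring cells and 114 others. The high-scoring cells had a median score of 4.84 and a maximum of 10.1. The cells are therefore the upper range of a score without a gap at the threshold, and whether they form a separate population was not tested.

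High-scoring cells were found on every plate and were most frequent on the Tie1/-2-deleted plates. They made up 79 of 267 wells (29.6%, 95% Wilson interval 24.4% to 35.3%) on plate 1 and 32 of 340 (9.41%, 6.75% to 13.0%) on plate 2 of Tie1 fl/fl. On the Tie1 iΔLEC plates they were 161 of 321 wells (50.2%, 44.7% to 55.6%) and 75 of 342 (21.9%, 17.9% to 26.6%). The intervals cover counting error only, and the plates of these genotypes overlapped, since the higher control plate lay above the lower deleted plate. The Tie1 Tie2 fl/fl plates had 33 of 348 wells (9.48%, 6.83% to 13.0%) and 49 of 332 (14.8%, 11.3% to 19.0%). The Tie1 Tie2 iΔLEC plates had 209 of 347 wells (60.2%, 55.0% to 65.2%) and 276 of 351 (78.6%, 74.0% to 82.6%), and did not overlap with their controls.

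**Figure D1:**
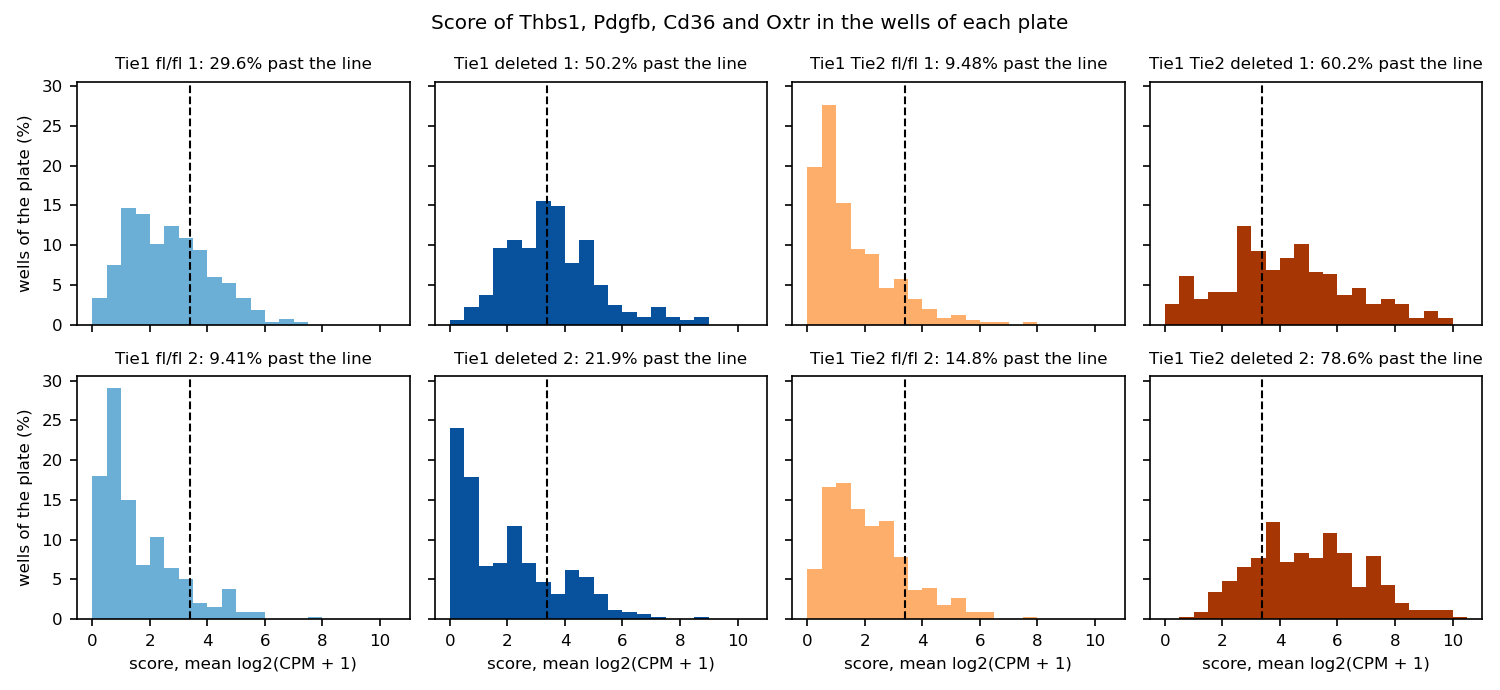
Histograms of the score, the mean log2(CPM + 1) of Thbs1, Pdgfb, Cd36 and Oxtr (x axis), as percent of the wells of each plate (y axis), for control (fl/fl) and deleted (iΔLEC) plates 1 and 2 of each strain; the dashed line is the threshold of 3.39. The distributions have no gap at the line, and 60.2% and 78.6% of the wells lie past it on the Tie1 Tie2 deleted plates.

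The mean share was 19.5% ± 14.3 (SD, n = 2 plates) in Tie1 fl/fl and 36.04% ± 20.0 in Tie1 iΔLEC, a difference of 16.5 percentage points that was of the size of the spread between plates. It was 12.1% ± 3.73 in Tie1 Tie2 fl/fl and 69.4% ± 13.0 in Tie1 Tie2 iΔLEC, a difference of 57.3 percentage points. Within the layouts, the deleted plate was above its control in each of the 4 pairs, by 20.6 (symbols) and 12.52 (identifiers) percentage points in the Tie1 strain and by 63.9 and 50.7 in the Tie1 Tie2 strain. With a threshold for each layout, the shares were 19.5% and 15.3% in Tie1 fl/fl, 34.9% and 26.6% in Tie1 iΔLEC, 14.9% and 11.4% in Tie1 Tie2 fl/fl, and 68.6% and 65.5% in Tie1 Tie2 iΔLEC. When values under 100 CPM were set to 0 before scoring, the control plates drew together, at 18.7% and 18.2% for Tie1 fl/fl and 12.9% and 10.8% for Tie1 Tie2 fl/fl. The Tie1 iΔLEC plates were then at 23.1% and 28.4%, above their controls, and the Tie1 Tie2 iΔLEC plates at 63.1% and 63.0%. With values under 10 CPM set to 0 the plates stayed apart, at 26.97% and 10.9% in Tie1 fl/fl and 52.02% and 22.8% in Tie1 iΔLEC, where the genotypes overlapped, and at 8.33% and 16.6% in Tie1 Tie2 fl/fl and 64.6% and 73.5% in Tie1 Tie2 iΔLEC. Both settings were added after the data were seen. When a plate was left out, the threshold was taken again from the control plates that remained. The difference in the Tie1 strain fell to 2.43 percentage points without plate 1 of Tie1 iΔLEC and to 7.37 without plate 2 of Tie1 fl/fl. It rose to 29.4 without plate 1 of Tie1 fl/fl and to 30.7 without plate 2 of Tie1 iΔLEC. No p-value is given for the shares, because the score genes were chosen with results of these plates known.

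The 4 genes did not contribute alike on all plates. Thbs1 (chromosome 2 of GRCm38, 118111876 to 118127133) was at 100 CPM or more in 47.2% to 81.2% of the high-scoring cells of a plate and in 7.77% to 36.2% of the other wells. Its level over all wells was 146 and 221 CPM for Tie1 fl/fl, 254 and 354 in Tie1 iΔLEC, 128 and 146 in Tie1 Tie2 fl/fl, and 1138 and 1012 in Tie1 Tie2 iΔLEC. The deleted plates were above their controls in both strains, with a far wider margin in the Tie1 Tie2 strain. Its receptor gene Cd36 (chromosome 5, 17781690 to 17888801) was at 9.59 and 8.71 CPM over all wells in Tie1 fl/fl and at 30.0 and 57.3 in Tie1 iΔLEC. In the Tie1 Tie2 strain Cd36 was at 9.50 and 16.1 CPM in the controls and at 124 and 206 CPM after deletion, again without overlap. Among high-scoring cells, Cd36 reached 100 CPM in 8.86% to 15.6% on the 4 control plates, in 18.01% and 42.7% on the Tie1 iΔLEC plates, and in 37.3% and 44.6% on the Tie1 Tie2 iΔLEC plates.

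By its CPM, Pdgfb (chromosome 15, 79995874 to 80014977) lay on different sides of its controls in the strains, a difference that was not tested. Over all wells it was at 86.9 and 58.8 CPM in Tie1 fl/fl and at 58.6 and 37.2 in Tie1 iΔLEC. In the Tie1 Tie2 strain it was at 55.5 and 51.0 CPM in the controls and at 163 and 150 CPM after deletion. The Tie1 iΔLEC plates were thus below both of their controls and the Tie1 Tie2 iΔLEC plates above theirs. In the Tie1 strain the gap was small, with 58.57 CPM on plate 1 of Tie1 iΔLEC and 58.76 on plate 2 of Tie1 fl/fl. The shares of wells with Pdgfb at 100 CPM or more overlapped there, at 15.4% and 8.82% in Tie1 fl/fl and 14.6% and 7.60% in Tie1 iΔLEC. Oxtr (chromosome 6, 112473683 to 112489943) was at 55.8 and 41.3 CPM over all wells in Tie1 fl/fl, 104 and 105 in Tie1 iΔLEC, 61.9 and 39.5 in Tie1 Tie2 fl/fl, and 206 and 101 in Tie1 Tie2 iΔLEC. For Oxtr, too, no deleted plate overlapped with a control plate of its strain.

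**Figure D2:**
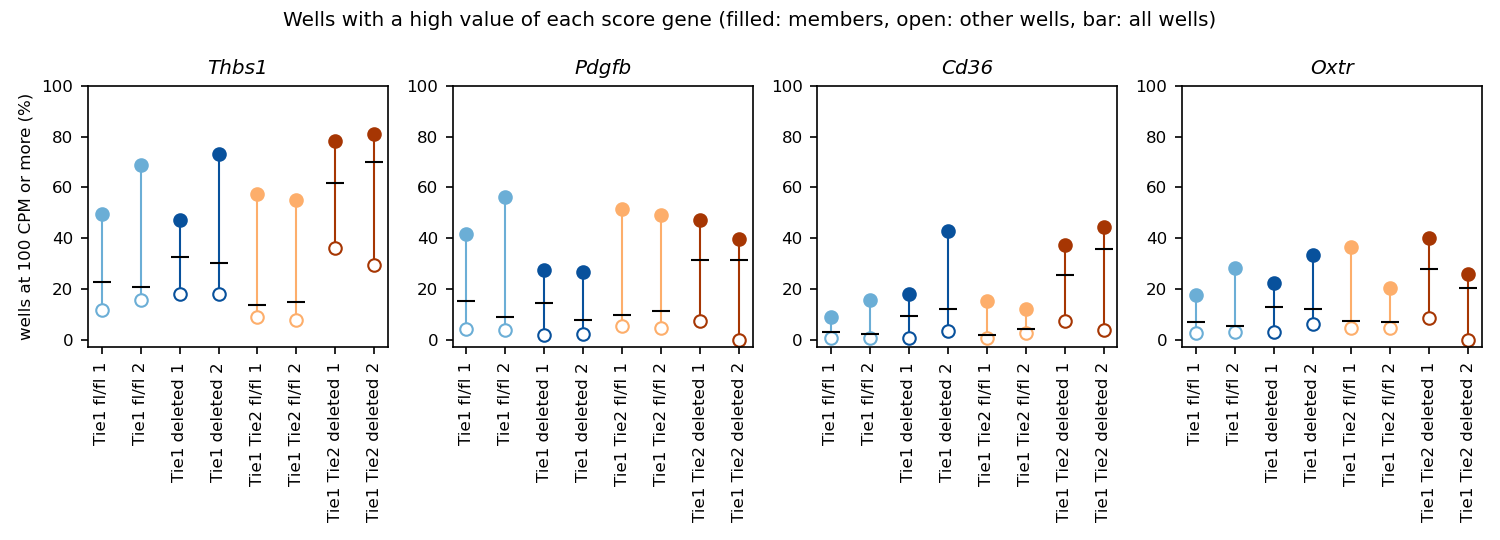
Percent of wells at 100 CPM or more (y axis) for each score gene on each plate (x axis), in high-scoring cells (filled points), other wells (open points) and all wells (black bars). The bars for Cd36 are at 25.4% and 35.9% on the Tie1 Tie2 deleted plates and at 2.01% to 4.22% on the 4 control plates.

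Few high-scoring cells reached 10 CPM in all 4 genes. At 10 CPM or more, 36.6% to 84.4% of the high-scoring cells of a plate had exactly 2 of the 4 genes, and 0% to 16.8% had all 4. At 100 CPM or more, 2 or more genes were reached by 27.8%, 26.7%, 40.8% and 63.0% of the high-scoring cells on the plates with symbols, and by 65.6%, 66.7%, 54.5% and 74.6% on those with identifiers (each with the Tie1 strain before the Tie1 Tie2 strain and the control before the deleted plate). In the same order, 13.9%, 21.7%, 8.16% and 2.90% of the high-scoring cells on the plates with symbols reached 100 CPM in none of the 4 genes. On each plate with identifiers this was 0%. Cells with 3 genes at 100 CPM made up 3.12% to 6.67% on the 6 plates other than Tie1 Tie2 iΔLEC, where they were 20.1% and 22.8%. The genes were weakly related across the wells of a plate. Spearman's rho between Thbs1 and Pdgfb was 0.00447 to 0.323 over 267 to 351 wells, and that between Pdgfb and Oxtr -0.0949 to 0.098. These values are descriptions of sparse counts from wells that share a plate.

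The high-scoring cells were spread over the LEC classes for which the study lists markers. A well was taken as high for a class when its mean log2(CPM + 1) of the class markers lay above the 85th percentile of the control wells. For the collector markers (Tgm2, Mmrn2, Plvap and others), 35.4% of the high-scoring cells and 18.1% of the other wells were high on plate 1 of Tie1 fl/fl, but 6.25% and 8.12% on plate 2. On the Tie1 Tie2 fl/fl plates the values were 18.2% against 14.9% and 18.4% against 14.8%, on the Tie1 iΔLEC plates 9.94% against 8.12% and 4.00% against 3.75%, and no well of the Tie1 Tie2 iΔLEC plates was high. For the capillary markers the order of high-scoring and other wells differed between the plates of both control genotypes, with 13.9% against 18.6% and 21.9% against 11.7% in Tie1 fl/fl and 18.2% against 10.48% and 12.2% against 20.8% in Tie1 Tie2 fl/fl. High-scoring cells were above the others on the 4 deleted plates, with 22.98% against 16.9% and 13.3% against 13.1% in Tie1 iΔLEC and 4.31% against 3.62% and 3.26% against 1.33% in Tie1 Tie2 iΔLEC. These differences rest on few wells. Of the wells high for the capillary markers, 10 of 45 were high-scoring on plate 2 of Tie1 iΔLEC, and 9 of 14 and 9 of 10 on the Tie1 Tie2 iΔLEC plates. The proliferation markers were high in 57.0% of the high-scoring cells and 49.5% of the other wells of plate 1 of Tie1 fl/fl, which held 45 of the 52 such high-scoring control cells. They were high in 0% and 3.25% on its plate 2, and in 3.03% against 6.35% and 12.2% against 6.36% on the Tie1 Tie2 fl/fl plates. On the Tie1 iΔLEC plates the values were 43.5% against 41.9% and 6.67% against 4.49%, and on the Tie1 Tie2 iΔLEC plates 3.83% against 10.9% and 10.1% against 1.33%. Summed CPM of these markers gave another order, with 102 against 405 on plate 1 of Tie1 fl/fl and 123 against 286 on plate 1 of Tie1 iΔLEC. The sums were 271 against 85.9 CPM on plate 2 of Tie1 iΔLEC, 99.9 against 20.2 on plate 2 of Tie1 Tie2 iΔLEC, and lower in high-scoring cells on the remaining plates. The part of low counts in these shares was not tested. The interferon response genes were high in 7.97% to 47.2% of the high-scoring cells of a plate and the valve markers in 6.06% to 42.9%, in both lists more than in the other wells on some plates and less on others. Cells high for Mest, Ptx3 and Mrc1 were fewer among high-scoring cells than among the other wells on the control plates, with 21.5% against 28.7%, 6.25% against 6.82%, 9.09% against 14.6% and 8.16% against 16.3%. They were 44.7% against 41.9% and 10.7% against 9.36% on the Tie1 iΔLEC plates, and 15.8% against 16.7% and 35.1% against 41.3% on the Tie1 Tie2 iΔLEC plates. These shares were not tested.

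Apart from the 4 score genes, few genes set the high-scoring cells apart on every plate. Of 9779 genes that averaged 10 CPM or more, 5 (0.0511%) were at least 2-fold higher in high-scoring cells on 8 of 8 plates. They were the 4 score genes and Gm29233, a gene that lies inside Thbs1 on the opposite strand, so that their reads cannot be told apart here. None (0%) was 2-fold lower on 8 plates. Without a minimum of size, 81 genes (0.828%) were higher on 8 of 8 plates and 108 (1.1%) were lower. These comparisons describe cells that the score had chosen and have no test. Ratios below are the median over plates of log2 of (CPM + 1) in high-scoring cells over (CPM + 1) in the other wells of the plate, and the median over the 9775 genes other than the score genes was -0.05.

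Targets of the transcriptional coactivators YAP and TAZ were among the genes that were higher. Ccn2 (connective tissue growth factor, chromosome 10, 24595442 to 24598683) had a ratio of 1.22. Gm15270, whose position overlaps that of Ccn2, had a ratio of 1.21 and was also higher on 8 of 8 plates. Whether the reads of the 2 genes are separate was not tested. Ccn2 was at 96.0 against 67.9 CPM and 273 against 73.5 CPM (high-scoring against other) on the Tie1 fl/fl plates. On the Tie1 iΔLEC plates it was at 144 against 77.4 and 148 against 58.2 CPM. On the Tie1 Tie2 fl/fl plates Ccn2 was at 199.5 against 72.7 CPM and 123.5 against 56.4 CPM, and after Tie1/-2 deletion at 583 against 296 and 486 against 164 CPM. High-scoring cells were higher on each plate, and both kinds of cells were highest after Tie1/-2 deletion. Gadd45b, a stress response gene, and Amotl2, an angiomotin family member that binds YAP, had ratios of 0.71 and 0.63. In all, 3 of the 11 measured YAP-TAZ targets other than Thbs1 were higher on 8 of 8 plates, none was lower, and their median was 0.37. Ccn1 had a ratio of 0.81 but was higher on 6 plates only.

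Of the genes higher on 8 of 8 plates, the others with the highest ratios were Zfp462 (1.47), Edn1, which encodes the vasoconstrictor peptide endothelin 1 (1.25), Ndrg2 (0.92, but -0.35 with a threshold at the 90th percentile), Depp1, a FoxO target (0.84), Gramd1b (0.71) and Txnrd2, a mitochondrial thioredoxin reductase (0.67). Edn1 was at 54.8 against 18.3 CPM and 74.97 against 15.02 CPM on the Tie1 Tie2 iΔLEC plates, but at 11.5 against 11.1 CPM on plate 1 of Tie1 iΔLEC. Zfp462, Edn1, Ndrg2 and Gramd1b averaged 38.7 CPM or less in high-scoring cells, where the sums rest on as few as 32 cells. In the TGF-beta list, 3 of 17 genes were higher on 8 plates and none lower, with a median of 0.13. They were the coreceptor gene Eng (0.33), Id3 (0.24) and Ltbp1 (0.53), which encodes a protein that binds latent TGF-beta. Angpt2, the angiopoietin 2 gene, had a ratio of 0.39 and was the only gene of the angiopoietin and Tie list, and of the 13 tip cell genes apart from Pdgfb, that was higher on 8 plates. In the tip cell list Nid2, a basement membrane gene, was lower on 8 plates (-0.41), and the medians of these lists were -0.24 and -0.03.

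Promoters (the 250 bases before the transcription start, from RefSeq, build GRCm38.p6) were found for 8 of 13 genes (the 4 score genes, the 8 next by ratio among genes higher on 8 plates, and Amotl2), but not for Thbs1, Pdgfb or Ccn2. The letters GGAATG, read by the TEAD partners of YAP and TAZ, were searched on both strands. They were present in 3 of the 8 (Amotl2, Edn1 and Txnrd2; 2 of 7 without Amotl2, which was added from the list of YAP-TAZ targets), in 0 of the 5 found among the 8 genes with the lowest ratios of those lower on 8 plates, and in 12.6% of all 32851 promoters. TGTTTAC, read by FoxO factors, was present in 1 of the 8 (Ndrg2; 3.17% of all promoters). The AP-1 letters TGANTCA (6.75%), the CRE letters TGACGTCA (1.55%) and the SMAD letters CAGACA (17.1%) were in none of the 8, and CAGACA was in 1 of the 5, Cyb5rl. Genes were counted by a match in any of their promoters, whereas the percentages are of promoters, so the 2 kinds of share differ in unit and were not tested against each other. A match is a run of letters and not a binding site. Of the 3 promoters with a match, those of Amotl2, a YAP-TAZ target, and Edn1, which had the highest ratio of the 3, are shown as examples, with the match, on the reverse strand and so read as CATTCC, in capitals. It begins 65 bases before the start in Amotl2 (chr9:102717554-102717803, forward strand) and 207 bases before it in Edn1 (chr13:42301226-42301475, forward strand).
Amotl2: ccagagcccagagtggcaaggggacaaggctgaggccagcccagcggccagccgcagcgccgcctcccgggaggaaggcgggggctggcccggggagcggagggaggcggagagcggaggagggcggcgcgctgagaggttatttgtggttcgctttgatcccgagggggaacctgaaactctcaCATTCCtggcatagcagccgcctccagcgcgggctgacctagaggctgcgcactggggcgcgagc
Edn1: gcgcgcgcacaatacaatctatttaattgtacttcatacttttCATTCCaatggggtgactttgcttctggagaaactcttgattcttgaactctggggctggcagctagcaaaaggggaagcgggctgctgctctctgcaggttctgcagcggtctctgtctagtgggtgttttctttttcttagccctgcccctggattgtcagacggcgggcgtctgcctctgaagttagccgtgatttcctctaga

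A pair of genes of VEGF reception and a sorting marker were lower. Nrp2 (neuropilin 2, a coreceptor of VEGF-C) had a ratio of -0.52, Flt4 (VEGFR3) of -0.22, and the LEC surface marker gene Pdpn of -0.26. Each was lower in high-scoring cells on 8 of 8 plates. Nrp2 was at 315 against 471 and 89.1 against 291 CPM on the Tie1 fl/fl plates and at 91.5 against 192 and 114 against 242 CPM on the Tie1 Tie2 iΔLEC plates. Flt4 differed less, for example 1558 against 1738 and 1298 against 1512 CPM on the Tie1 Tie2 iΔLEC plates. Pdpn is one of the proteins the cells were sorted on. The VEGF list had 2 of its 6 measured genes lower on 8 plates, none higher, and a median of -0.40, and the LEC list 3 of 11 lower with a median of 0.05.

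Among the genes lower on 8 of 8 plates, the lowest ratios belonged to Cyb5rl (-2.11), Stc1 (-1.54), Adamts1 (-1.48), Boc (-1.43), Plxdc1 (-1.27), Ptn (-1.22), Sdc4 (-1.22) and Ednrb (-1.15). Adamts1, a matrix protease gene, was at 40.3 against 82.2 and 39.8 against 148 CPM on the Tie1 fl/fl plates, 57.9 against 99.7 and 23.4 against 90.7 on Tie1 iΔLEC, 27.1 against 93.7 and 20.5 against 77.7 on Tie1 Tie2 fl/fl, and 4.91 against 9.87 and 1.85 against 5.54 on Tie1 Tie2 iΔLEC. It was thus lower in high-scoring cells also on the plates where both kinds of cells had little of it. Stc1, which encodes the secreted hormone stanniocalcin 1, was lower in high-scoring cells too, but both kinds of cells had more of it after Tie1/-2 deletion, with 45.2 against 105 and 66.25 against 170.2 CPM, than in the controls, with 8.41 against 44.1 and 11.05 against 52.15 CPM. Ednrb, a receptor for endothelin 1, averaged 51.1 CPM in high-scoring cells and 105 CPM in the others. Sdc4, a heparan sulfate proteoglycan of the surface to which thrombospondin 1 binds, averaged 20.3 and 43.9 CPM. Slc41a1, listed by the study among valve markers, was lower on 8 plates with a ratio of -0.97.

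**Figure D3:**
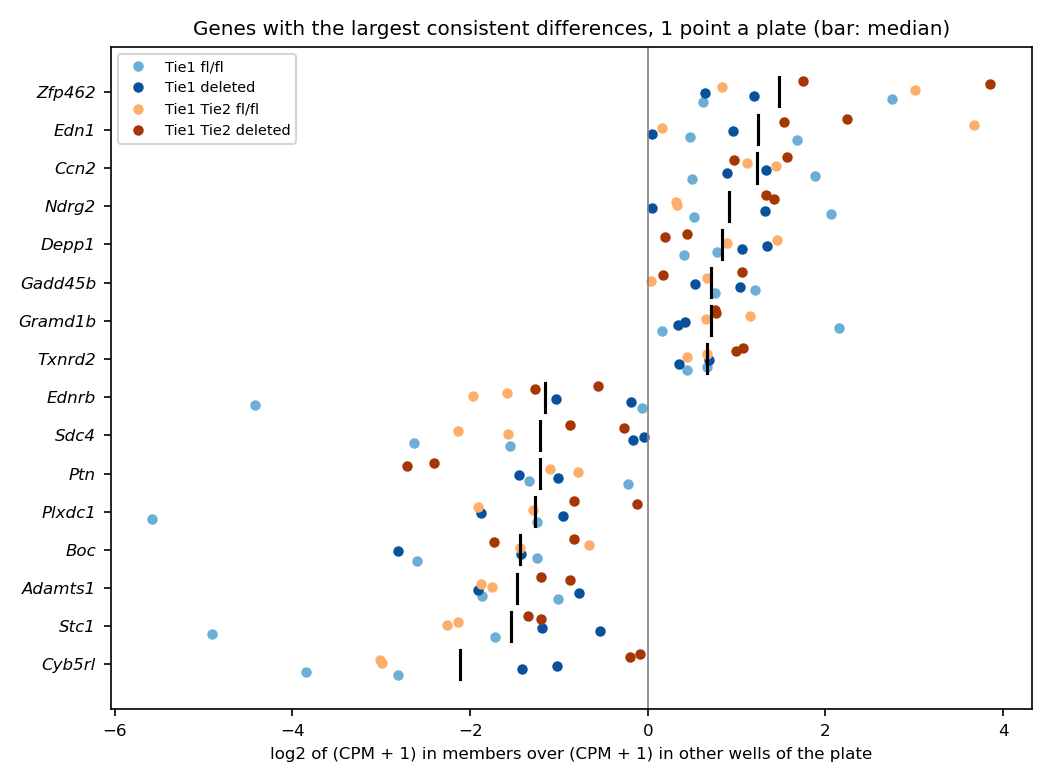
Log2 of (CPM + 1) in high-scoring cells over (CPM + 1) in the other wells of the same plate (x axis) for the 8 genes with the highest median after the score genes and the 8 with the lowest among genes on 1 side of 0 on 8 of 8 plates (y axis); each point is 1 plate and the black bar the median of 8 plates. All 8 points of a gene lie on 1 side of 0 by that rule, and Zfp462 (1.47) and Cyb5rl (-2.11) have the outermost medians.

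Few partners of the score genes lay on 1 side on every plate, as held for genes at large. In the list of thrombospondins and their partners, 1 of 13 measured genes other than the score genes was lower on 8 plates (Sdc4), none was higher, and the median was 0.00. Cd47, another thrombospondin receptor gene, averaged 472 and 489 CPM in high-scoring and other cells. None of the 5 PDGF pathway genes, of the 16 genes of fatty acid handling or of the 6 genes of oxytocin and Gq signaling was on 1 side on 8 plates. Their medians were -0.25, -0.05 and 0.08. The fatty acid transporter gene Slc27a4 averaged 59.2 CPM in high-scoring and 36.5 CPM in other cells (median log2 ratio 1.05), and Gna11, a G protein subunit of the Gq family, 133 and 90.5 CPM (0.52), each higher on 7 of 8 plates. Both were picked with their values in view. The 20 immediate early and stress genes had a median of -0.01, with 1 (Klf4) lower and none higher on 8 plates. Of the 14 actin and SRF genes Zyx was higher (0.29, list median 0.01), of the 13 basement membrane genes Nid2 was lower (median -0.06), and of the 14 lymphatic transcription factor genes Klf4 was lower (-0.37, median -0.18). None of the 18 PI3K and FoxO genes (median -0.03), 8 hemostasis genes (-0.06), 7 collector (-0.01), 6 capillary (0.06), 6 proliferation (-1.46) or 3 interferon genes (-0.28) was on 1 side on 8 plates, and of Mest, Ptx3 and Mrc1 only Mrc1 was, lower (-0.81).

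Tie1/-2 deletion was then compared within the high-scoring cells, in sums of 7316611 to 83420476 counts per plate. Of 16279 genes, 48 (0.295%) passed an adjusted p of 0.05 in the quasi-likelihood F-test of edgeR (Benjamini-Hochberg), and 1299 (7.98%) were under 0.05 unadjusted. Of the 48, 6 rose (0.0369% of genes) and 42 fell (0.258%), among them the floxed genes Tie1 and Tek (adjusted p = 0.0441 for each by edgeR). Also among the 42 were Gm26776, Gm20412 and Gm15851, whose positions overlap those of Ccdc3, Tgm2 and Prelp, which fell too. Whether the reads of such overlapping genes are separate was not tested. The control plates gave 33 and 49 cells, and the count depended on single plates. It was 4 without plate 2 of Tie1 Tie2 iΔLEC, 11 and 17 without plate 1 or plate 2 of Tie1 Tie2 fl/fl, 18 without plate 1 of Tie1 Tie2 iΔLEC, and 28 and 31 without plate 1 or plate 2 of Tie1 iΔLEC. With the replicate number as a block, which within a strain also separates the layouts, it was 15 (1 rose and 14 fell). All 48 genes were also apart in the same direction in the other wells of the same plates, where 14.7% of all genes tested were apart upward and 22.5% downward. Deletion by high-scoring status was tested in a fit of both kinds of cells with the plate as a block. None of 19637 genes was called for Tie1 or for Tie1/-2 deletion by edgeR, against 743 and 1039 (3.78% and 5.29%) at an unadjusted p under 0.05 and 151 and 202 by DESeq2.

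Angpt2 (chromosome 8, 18690263 to 18741562) rose with Tie1/-2 deletion, from 517 and 538 CPM to 3366 and 2563 CPM in high-scoring cells (log2 fold change 2.49, SE 0.30, adjusted p = 0.0152 by edgeR). In the other wells it went from 230 and 491 CPM to 2705 and 2344 CPM. Esm1 (endocan, a tip cell gene; chromosome 13, 113209659 to 113218098) had 0 counts in the high-scoring cells of both Tie1 Tie2 fl/fl plates and was at 113 and 60.8 CPM after deletion. Against a floor of 3 counts over the controls it was at least 537-fold higher (adjusted p = 0.0157 by edgeR). Scn3a, a subunit of a voltage-gated sodium channel, rose from 207 and 114 CPM to 708 and 859 CPM (log2 fold change 2.28, SE 0.37, adjusted p = 0.0476 by edgeR). The amino acid transporter gene Slc38a1 had 2 counts in the controls and was at 51.6 and 65.7 CPM after deletion, a ratio of 639 (95% counting interval 177 to 5275.5), and Hhipl2 went from 0.348 and 0.826 CPM to 66.9 and 64.2 CPM. Both passed the test, Slc38a1 with an adjusted p of 0.0433 and Hhipl2 with 0.021. The other gene that rose was Fn1 (fibronectin 1), from 1208 and 1137 CPM to 3818 and 3263 CPM (adjusted p = 0.029 by edgeR).

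Comp, a thrombospondin family member and a matrix protein, fell from 603 and 448 CPM to 6.05 and 11.6 CPM (log2 fold change -5.89, SE 0.61, adjusted p = 0.00841 by edgeR). Ptn (pleiotrophin, a heparin-binding growth factor) fell from 93.5 and 95.7 CPM to 0.171 and 0.947 CPM, and Slco2a1, a prostaglandin transporter gene, from 187 and 63.3 CPM to 0.610 and 1.56 CPM. Klf15, a zinc finger transcription factor, had 588 counts in the controls and 2 after deletion. Prkar1b (chromosome 5, 139017306 to 139150001), a regulatory subunit of protein kinase A, had 7565 counts in the controls, at 441 and 345 CPM, and 4 after deletion (adjusted p = 0.000444 by edgeR). Its ratio was 11861, with a 95% counting interval of 4630 to 43542. These intervals cover counting error only, not the spread between cells or plates, and Smart-seq reads without molecular identifiers are not independent molecules. Clca3a1 fell from 262 and 325 CPM to 11.4 and 9.58 CPM, and the elastin gene Eln from 584 and 522 CPM to 50.3 and 49.0 CPM. Clca3a1 and Eln fall outside the rule for the genes named here and were picked with their values in view. In the 17 alternative settings, Prkar1b passed in all 17, Comp in 16, Ptn in 15, Angpt2 in 14, Esm1 and Hhipl2 in 11 each, Slco2a1 in 10, Klf15 and Fn1 in 9 each, and Slc38a1 and Scn3a in 5 each.

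**Figure D4:**
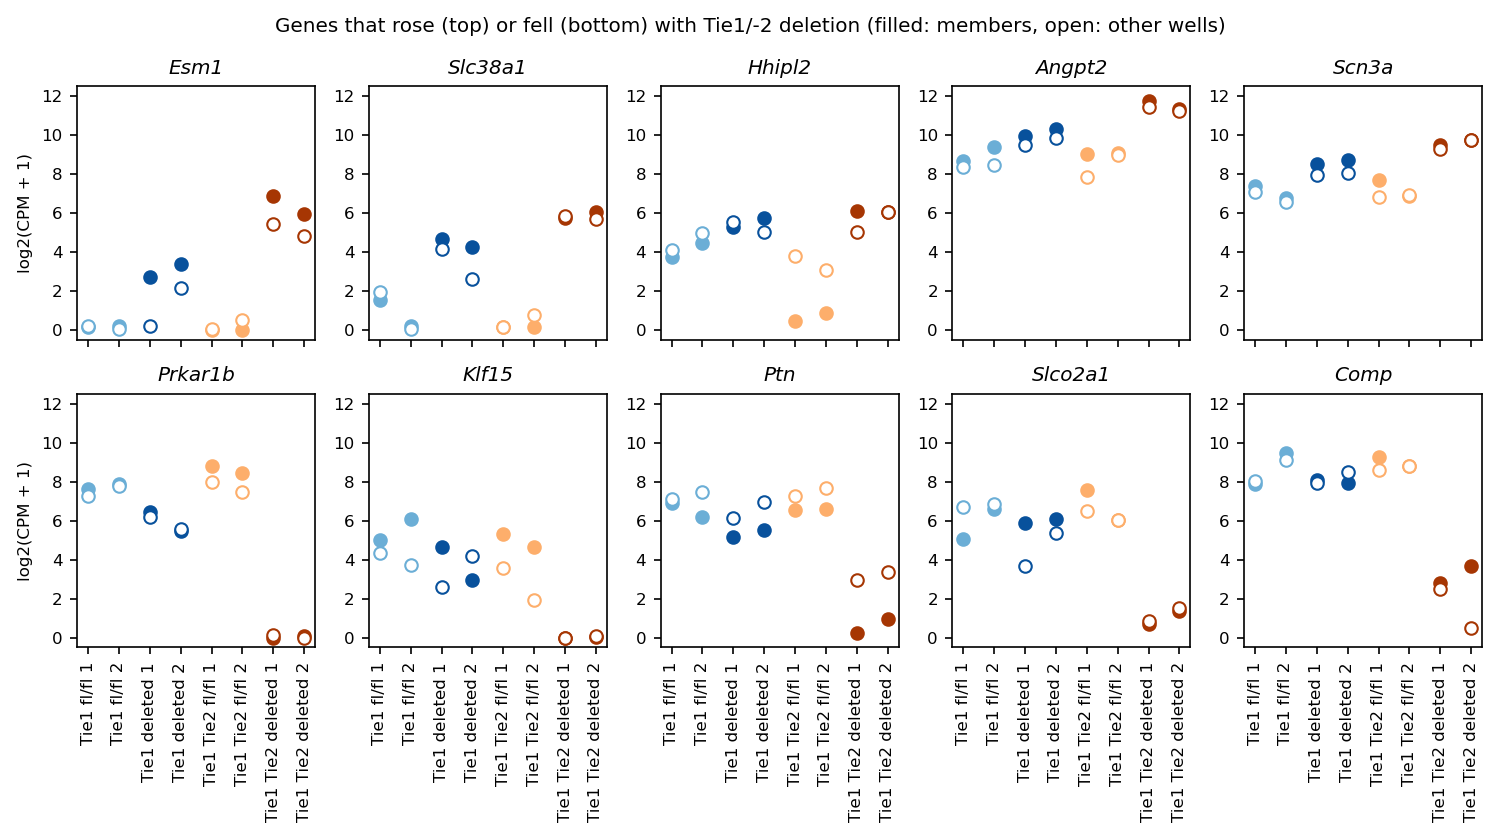
Log2(CPM + 1) after TMM scaling (y axis) on each plate (x axis) for the 5 largest rises (top) and 5 largest falls (bottom) among genes called with Tie1/-2 deletion in high-scoring cells; filled points are high-scoring cells and open points the other wells. In both kinds of cells the Tie1 Tie2 deleted plates lie on the same side of their controls, and Prkar1b is at or near 0 on both Tie1 Tie2 deleted plates.

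By list, 4 of the 7 collector markers fell (Ccdc3, Procr, Tgm2 and Mmrn2), with a median log2 fold change of -2.16 against 0.04 over all genes tested. Tgm2, a transglutaminase gene, fell from 1485 and 2171 CPM to 505 and 315 CPM. The study lists these markers for the LEC clusters of these plates, so the count was not taken as independent evidence of their direction. Of the 6 capillary markers, 1 fell (Tppp3), and none of the 4 valve markers tested (Gdf10, Gjd3, Slc41a1 and Neo1) was called. Cldn11, a claudin gene that the study also lists for valves but that was not in the list used here, fell from 272 and 193 CPM to 45.7 and 37.6 CPM (log2 fold change -2.48, adjusted p = 0.0303 by edgeR). Of the 16 tip cell genes tested other than Pdgfb, Angpt2 and Esm1 rose and Igfbp3 fell. Of the 17 YAP-TAZ targets tested other than Thbs1, none was called. Ccn2 had a log2 fold change of 1.65 (SE 0.52, adjusted p = 0.407 by edgeR). None of the 11 LEC markers was called, nor any of the 13 genes of VEGF reception, of the 21 of fatty acid handling, of the 15 of basement membrane, of the 22 of the TGF-beta list or of the 26 of PI3K and FoxO. Comp was the 1 gene called of 16 in the thrombospondin list, Angpt2 of the 6 in the angiopoietin and Tie list other than the floxed Tie1 and Tek, and Procr of 12 in the hemostasis list, and no gene was called in the other lists. Among the markers of other cell types, 5 of the 6 keratinocyte genes were lower at an unadjusted p under 0.05 by edgeR. Of all 16279 genes tested, 708 were. None of the keratinocyte genes passed the adjustment. Krt5 was at 334 and 33.5 CPM in the controls and at 3.44 and 17.6 CPM after deletion, and the part of keratinocyte RNA in the results was not tested.

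With Tie1 deletion alone, no gene (0%) was called in high-scoring cells by edgeR, against 758 (4.66%) at an unadjusted p under 0.05, 154 by DESeq2 and 24 without a filter on low counts. Tie1 itself, with a log2 fold change of -2.14 (SE 0.37), had an adjusted p of 0.941 by edgeR and was not called either. The smallest p-values upward belonged to Frzb (1 count in the controls, 13.3 and 20.4 CPM after deletion), Kcnj8 (0.655 and 0 CPM against 26.3 and 40.2 CPM), and Kcns1 (0.742 and 0.295 CPM against 125 and 18.5 CPM). Downward, apart from score genes, they belonged to Tie1 and Clca3a1 (296 and 325 CPM against 91.1 and 118 CPM). Angpt2 went from 408 and 657 CPM to 986 and 1268 CPM (log2 fold change 1.08, SE 0.29, adjusted p = 0.971 by edgeR). Of the genes called with Tie1/-2 deletion, all 6 that rose and 41 of the 42 that fell lay on the same side in the Tie1 strain, which shares no plate with the other (51.4% and 48.4% of all genes tested did). All 6 and 30 of the 42 (Tie1 itself included) did not overlap between the Tie1 fl/fl and Tie1 iΔLEC plates in that direction. Of all genes tested, 18.3% and 13.5% did not. The genes were called in a joint fit of both strains, in which the spread between the Tie1 plates counted too. Genes with a small spread there were favored, so the shares without overlap are not independent of the calling.

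The test of the difference between the deletions called 1 gene of 16279 (0.00614%), Prkar1b. The log2 fold change with Tie1/-2 deletion minus that with Tie1 deletion was -11.82 (SE 0.89, adjusted p = 0.0031 by edgeR), with values of 196 and 230 CPM in Tie1 fl/fl and 87.0 and 43.5 CPM in Tie1 iΔLEC. The test called no gene without plate 1 of Tie1 fl/fl or with the replicate block, had 945 genes (5.81%) under 0.05 unadjusted, and called 183 by DESeq2. For the other genes a larger change with Tie1/-2 than with Tie1 deletion was not shown. For deletion by high-scoring status, the smallest p-values belonged to Slc45a3, Ezh1 and Pnma1 with Tie1 deletion (adjusted p = 1 for each by edgeR) and to Wdr46, Elmo3 and Gbp2 with Tie1/-2 deletion (adjusted p = 0.394, 0.931 and 0.931 by edgeR). Wdr46, a gene for a nucleolar protein, was at 6.73 and 7.44 CPM in the high-scoring cells of the Tie1 Tie2 fl/fl plates and at 45.2 to 112 CPM in those of the other 6 plates.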

How the data were processed

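Single cells sorted as LECs on 8 Smart-seq plates (2 per genotype) were analyzed. The 2 droplet libraries of the series were not used here. Per well, the values deposited by the authors are raw counts of reads per gene, not normalized. The submitters' processing notes name GRCm38 (mm10), TopHat2 2.1.1, SAMtools 0.1.18 and featureCounts. The tables hold 46517 genes each and were joined on 42557, 41776 through the current and 781 through an older name, and this kept 96.9% to 98.0% of the gene counts. Spike-ins and transgene rows (0.0832% to 0.158% of counts, in 4 tables) were left out. Plates had 71249844 to 110741537 gene counts. The members and the gene lists were chosen with earlier results of these data known.

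Of 3048 wells, 2648 passed the filters. For log2 ratios CPM of summed counts had a pseudocount of 1. Deletions were tested on counts summed over the high-scoring cells of a plate, in 1 fit of 8 plates, with edgeR 4.0.16. Genes were filtered with filterByExpr, sums were scaled by TMM, and the quasi-likelihood F-test was adjusted by Benjamini-Hochberg with a threshold of 0.05. The script was checked on simulated counts. A permutation of plates planned for the shares is not reported, since the score genes were chosen on these plates. Named genes were the score genes, Tie1 and Tek, the 12 highest (score genes included) and 8 lowest ratios of 1 direction on 8 plates with at least 10 CPM, and the 5 largest rises and falls among called genes with at least 10 CPM and no overlap. Where none was called, they were the 3 smallest p in each direction (for deletion by high-scoring status, the 3 smallest). Predicted, mitochondrial, ribosomal and Y-linked genes, Xist and pseudogenes were left out. Of each list, examples were the most abundant genes and those the rule names; others were chosen after their values were seen. Tried as alternatives were a replicate block, the layout as a term, each strain alone, DESeq2 1.42.0, scaling by RLE, omission of the filter, other thresholds, scores and well filters, thinning to 50000 counts, and each plate left out. Setting values under 10 or 100 CPM to 0 was added after the data were seen. Within a strain, plates of 1 replicate number had the same layout; no label names a shared litter or day. Other tools were R 4.3.3, limma 3.58.1 and Python with numpy, pandas and scipy.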

Additional observations from a re-analysis of the deposited data

Results flagged for a closer look

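Prkar1b differed between the deletions in high-scoring cells. Its log2 fold change with Tie1/-2 deletion minus that with Tie1 deletion was -11.82 (adjusted p = 0.0031 by edgeR), and it was lower in both deleted plates of both strains. In the other wells it was at 152 and 214 CPM in Tie1 fl/fl, 71.3 and 46.5 CPM in Tie1 iΔLEC, 251 and 178 CPM in Tie1 Tie2 fl/fl, and 0.0772 and 0 CPM in Tie1 Tie2 iΔLEC. The adjusted p was 0.132 with a replicate block and 0.05003 without plate 1 of Tie1 fl/fl.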

How the results depend on the processing

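Depth, few cells and 2 plates per genotype limit these results: the control plates gave 32 to 79 high-scoring cells. With wells thinned to 50000 counts the shares were 25.5% and 11.8% in Tie1 fl/fl and 48.0% and 23.4% in Tie1 iΔLEC. They were then 9.77% and 15.4% in Tie1 Tie2 fl/fl and 63.4% and 72.6% in Tie1 Tie2 iΔLEC. With this thinning edgeR called 49 genes for Tie1/-2 deletion. The share differences kept their direction in all settings run. Leaving out each plate in turn gave 2.43 to 30.7 percentage points for Tie1 deletion, 48.1 to 66.5 for Tie1/-2 deletion and 29.9 to 44.0 for the average of both (36.9 with all plates). For Tie1/-2 deletion the difference was 41.7 with a score without Thbs1 and 45.4 without Cd36, and for Tie1 deletion 6.93 without Cd36 and 7.23 with values under 100 CPM set to 0. The filter for LEC and against fibroblast markers gave 14.1 and 59.7, but left 10 to 345 wells per plate, 10 of them on plate 1 of Tie1 Tie2 fl/fl.

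DESeq2 called 154, 523 (186 rose, 337 fell) and 183 genes in high-scoring cells for Tie1 deletion, Tie1/-2 deletion and their difference. For deletion by high-scoring status it called 151 and 202. Without a filter on low counts edgeR called 24, 360 (82 rose, 278 fell) and 110. For Tie1/-2 deletion it called 31 with the layout as a term, 26 with the 90th percentile and 4 with the 4 plates of the strain alone, where fewer plates were fitted. Leaving out each plate in turn gave 4 to 58 genes for Tie1/-2 deletion, 0 to 1 for the difference between the deletions (0 without plate 1 of Tie1 fl/fl), and 0 to 3 genes 2-fold lower in high-scoring cells on all plates left. At 1.5-fold 2 genes were lower and 6 higher. Ndrg2 reversed to a ratio of -0.35 with the 90th percentile. The causes were not tested.

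Within a strain, plates of 1 number had the same table layout, but no label names a shared litter or day, and their deviations correlated with r = 0.0857 in the Tie1 strain and 0.0911 in the Tie1 Tie2 strain. With a replicate block edgeR called 0 genes for Tie1 deletion, 15 for Tie1/-2 deletion and 0 for their difference.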
